A study of Homo sapiens with 4 samples.

Results

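Transcripts of 10 genes that report on, or restrain, signalling from RAS to the kinase ERK were examined in OVCAR5 cells carrying a control hairpin or a hairpin against the transcription factor gene FOXK2. The 10 genes were DUSP4, DUSP5, DUSP6, SPRY2, SPRY4, SPRED1, SPRED2, ETV4, ETV5 and EGR1. They were taken by symbol from the 56655 gene rows of the count tables as known ERK outputs and feedback inhibitors. These genes, and the gene lists used below, were chosen with earlier results of these data known. OVCAR5 is an established human ovarian cancer line, labelled as high grade serous and of ascites origin, grown in RPMI with serum. The 2 shCtrl libraries came from cells stably transduced with a pLKO.1-puro nontargeting hairpin. The 2 shFOXK2 libraries came from cells transduced with lentivirus carrying a FOXK2 hairpin, and both groups went through puromycin selection. The study made 2 FOXK2 hairpins and names the second for RNA-seq. The groups therefore differ by hairpin, and by the transduced and selected cell population, in 1 cell line. Effects of the hairpin itself, of transduction and selection, and of FOXK2 cannot be told apart in these 4 libraries.

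Growth factor receptors switch on RAS, which passes the signal through RAF and MEK kinases to ERK. Active ERK enters the nucleus and raises transcription of early genes such as EGR1, of the PEA3-type ETS factors ETV4 and ETV5, and of proteins that shut the pathway down again. The DUSP genes encode phosphatases that remove phosphate from MAP kinases, the Sprouty genes (SPRY2, SPRY4) encode membrane-associated inhibitors of receptor signalling to RAS, and the SPRED genes encode Sprouty-related proteins that bring neurofibromin to RAS. Because these transcripts follow ERK activity, they are widely read as a measure of pathway output, often in tumours with mutant RAS or RAF.

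Sequencing depth was 21950873 and 16804525 assigned reads for shCtrl, against 14284005 and 17733407 for shFOXK2. FOXK2 stood at 80.5 and 93.4 CPM (counts scaled to library size, here by the TMM method of edgeR) in shCtrl and at 76.4 and 59.6 CPM in shFOXK2. Its log2 fold change was −0.36 (SE 0.25, 95% interval −0.89 to 0.18, FDR 0.257), so the targeted transcript did not pass the test in these libraries. The study itself reported lower FOXK2 mRNA by PCR and lower protein by western blot in OVCAR5 cells carrying its FOXK2 hairpins. FDR is the Benjamini-Hochberg adjusted p-value of the edgeR quasi-likelihood test over all tested genes, with a threshold of 0.05. The 5 epithelial markers, which include EPCAM and the keratins of simple epithelia, summed to 3590 and 4780 CPM in shCtrl and 3440 and 4640 CPM in shFOXK2, although the adherens junction gene CDH1 among them fell from 20.6 and 16.2 CPM to 0.914 and 1.32 CPM (log2 fold change −4.02). The 3 Müllerian ovarian markers summed to 33.6 and 30 CPM in shCtrl and 11 and 9.39 CPM in shFOXK2, and of these WT1 had at most 2 counts in any library. The 8 markers of immune, endothelial and fibroblast cells summed to 25 and 21.1 CPM in shCtrl against 17.1 and 14.7 CPM in shFOXK2. The collagen gene COL1A1 made up most of that sum (14.5 and 13.4 CPM against 15.9 and 12.6 CPM), the endothelial genes PECAM1 (6.90 and 5.61 CPM against 0.633 and 1.59 CPM) and CDH5 (76 and 33 counts against 0 and 0) fell, and the leukocyte genes PTPRC and CD3E and the fibroblast genes COL1A2 and DCN had at most 3 counts in any library. The nuclear noncoding RNA MALAT1 took 0.0427% and 0.0239% of counts in shCtrl and 1.19% and 1.02% in shFOXK2. CDH1, the Müllerian sum, the endothelial markers and the MALAT1 share moved with the groups, and their part in the results below was not tested.

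All 10 genes passed the filter on low counts and were tested among 16417 genes. DUSP4 and DUSP5 rose in shFOXK2 and SPRED2 fell, while the other 7 genes did not pass an FDR of 0.05. The 3 calls are 30% of the 10 genes, where 48.4% of all tested genes were called (25.7% higher and 22.7% lower). The median log2 fold change of the 10 genes was 0.38, against 0.042 over all tested genes, and the median size without sign was 0.59 against 0.77. Both shFOXK2 libraries lay above both shCtrl libraries for 4 genes and below them for 2, and 4 genes overlapped. Over all tested genes the groups did not overlap for 75.4%, with shFOXK2 higher in 39.2% and lower in 36.2%. These shares describe 10 genes, and no test was made of the list. In bulk RNA, a lower amount per cell and fewer cells with the transcript cannot be told apart.

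**Figure D1:**
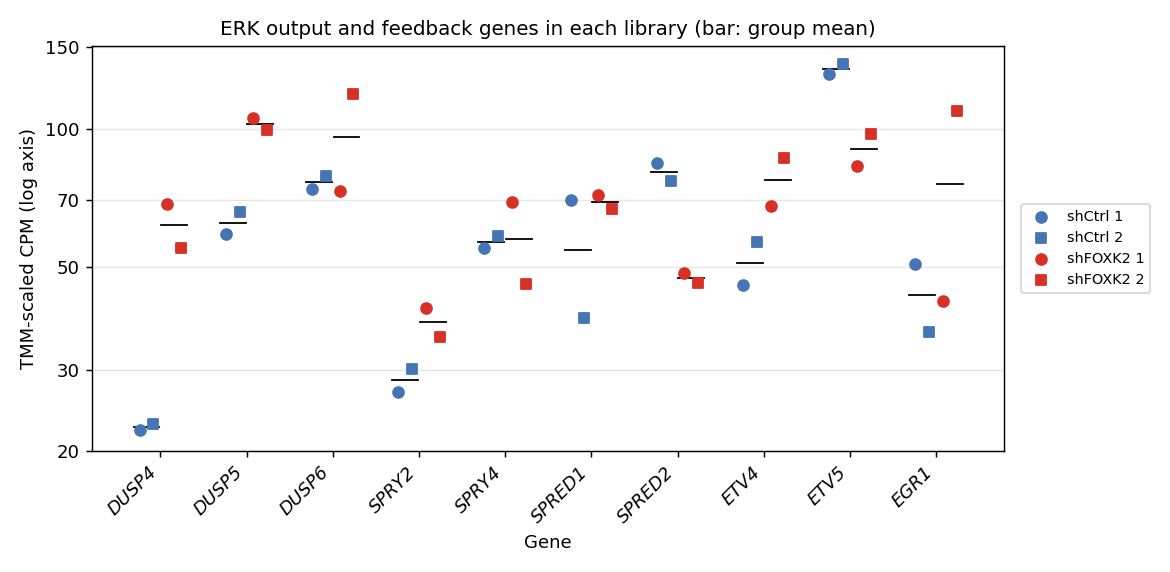
TMM-scaled CPM (log axis) of the 10 ERK output and feedback genes in each of the 4 libraries, shCtrl in blue and shFOXK2 in red, circles for replicate 1 and squares for replicate 2, with black bars at the group means. DUSP4 and DUSP5 lie higher and SPRED2 lower in both shFOXK2 libraries, while EGR1 is split, with 42.3 and 109 CPM in the 2 shFOXK2 libraries.

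The phosphatase genes were taken first. DUSP4 encodes a nuclear phosphatase of ERK and other MAP kinases (ENSG00000120875.9, chromosome 8 of hg38, 29333064 to 29350684, minus strand). Its counts were 495 and 367 in the controls and 977 and 1000 under the FOXK2 hairpin, which is 22.2 and 22.9 CPM against 68.7 and 54.9 CPM. The groups were well separated, and both shCtrl values were within 1.03-fold of each other. DUSP4 rose 2.74-fold, a log2 fold change of 1.46 (SE 0.26, 95% interval 0.90 to 2.01, FDR 0.000543). It kept an FDR under 0.05 in each of the 4 fits that left out 1 library (log2 fold change 1.26 to 1.58). Tested by glmTreat for a change beyond 1 log2 unit, DUSP4 had an FDR of 0.0621.

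DUSP5, which encodes a nuclear phosphatase with ERK as its substrate (ENSG00000138166.6, chromosome 10, 110497907 to 110511533, plus strand), had 59.0 and 66.0 CPM in shCtrl and 105 and 99.3 CPM in shFOXK2. Both shFOXK2 libraries were higher, by more than either pair of replicates differed. DUSP5 rose 1.64-fold, a log2 fold change of 0.71 (SE 0.24, 95% interval 0.20 to 1.22, FDR 0.0248). This call rested on all 4 libraries. The FDR was 0.103 without shCtrl replicate 1, 0.0504 without shCtrl replicate 2, 0.12 without shFOXK2 replicate 1 and 0.0875 without shFOXK2 replicate 2, with log2 fold changes of 0.60 to 0.72. With no filter on low counts it was 0.0826.

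DUSP6, the cytoplasmic ERK phosphatase most often used as an ERK readout (ENSG00000139318.8, chromosome 12, 89347235 to 89352501, minus strand), stood at 74.0 and 78.9 CPM in shCtrl. In shFOXK2 it stood at 73.2 CPM in replicate 1 and 119 CPM in replicate 2, so that 1 library was close to the controls and 1 was above them. Its log2 fold change was 0.33 (SE 0.27, 95% interval −0.25 to 0.91, FDR 0.333), and without shFOXK2 replicate 2 it was −0.095. A lncRNA on the opposite strand shares 28.6% of the annotated exon bases of DUSP6, and without a stated strand setting its reads cannot be separated from those of DUSP6. DUSP4 relative to DUSP6, as counts per kilobase of transcript within a library, was 0.196 and 0.189 in shCtrl and 0.613 and 0.302 in shFOXK2. DUSP5 relative to DUSP6 was 1.17 and 1.22 in shCtrl and 2.11 and 1.22 in shFOXK2.

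Most of the tested relatives of these phosphatases fell. DUSP1, induced by stress and mitogens and active on JNK, p38 and ERK, fell from 127 and 127 CPM to 50.6 and 42.4 CPM, a log2 fold change of −1.45 (SE 0.24, FDR 0.000356). DUSP8, DUSP10 and DUSP16, which act mainly on JNK and p38, fell as well. DUSP16 went from 61.5 and 58.7 CPM to 9.70 and 10.9 CPM (log2 fold change −2.54, SE 0.27, FDR 1.3e-05). DUSP8 went from 33.4 and 34.7 CPM to 7.59 and 5.00 CPM (log2 fold change −2.44), and DUSP10 from 14.5 and 15.5 CPM to 5.13 and 3.63 CPM (log2 fold change −1.78). In these 4 genes each shFOXK2 library lay below each shCtrl library by more than the replicates differed.

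DUSP7 and DUSP9, which like DUSP6 are cytoplasmic phosphatases of ERK, did not pass the test. DUSP7 had 31.5 and 34.5 CPM in shCtrl and 49.1 and 25.3 CPM in shFOXK2, on both sides of the controls, and DUSP9 had 8.02 and 11.2 CPM against 6.33 and 8.74 CPM. DUSP2 had 2 counts in shCtrl replicate 1 and none in the other libraries, too few to test. Of the 9 tested phosphatase genes, DUSP4 and DUSP5 rose, DUSP1, DUSP8, DUSP10 and DUSP16 fell, and DUSP6, DUSP7 and DUSP9 did not pass. Of all tested genes 48.4% were called, 25.7% higher and 22.7% lower.

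**Figure D2:**
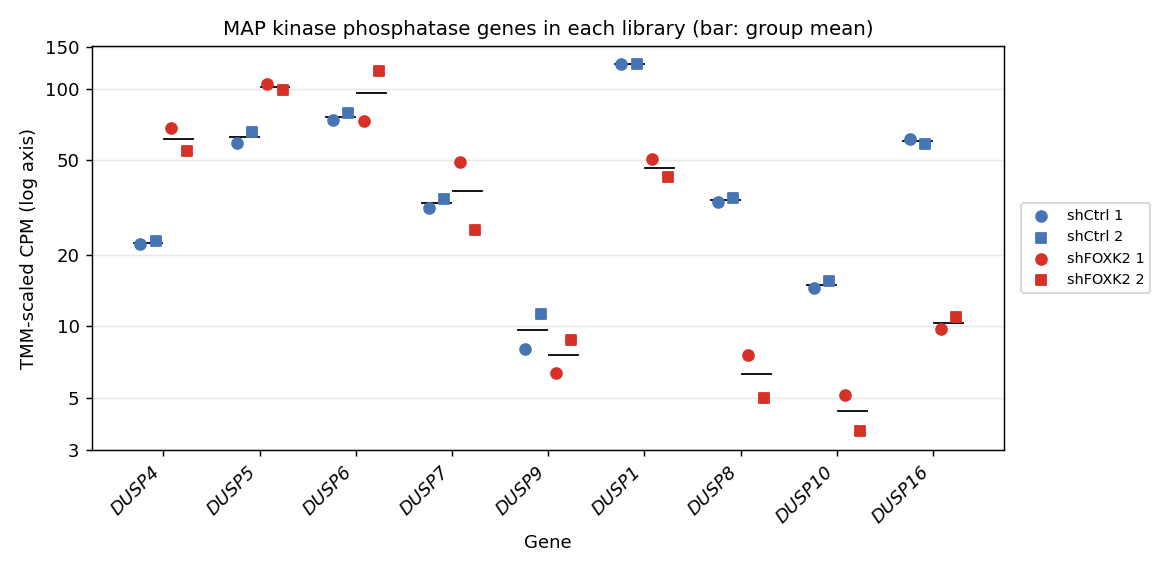
TMM-scaled CPM (log axis) of 9 MAP kinase phosphatase genes in the 2 shCtrl (blue) and 2 shFOXK2 (red) libraries, black bars at the group means, DUSP4, DUSP5, DUSP6, DUSP7 and DUSP9 first and then DUSP1, DUSP8, DUSP10 and DUSP16. The last 4 genes lie lower in both shFOXK2 libraries, DUSP16 at 9.70 and 10.9 against 61.5 and 58.7 CPM, whereas DUSP4 and DUSP5 lie higher.

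The Sprouty genes did not pass the test. SPRY2 (ENSG00000136158.12, chromosome 13, 80335976 to 80341126, minus strand) had 26.8 and 30.2 CPM in shCtrl and 40.8 and 35.4 CPM in shFOXK2. The groups did not overlap, but the log2 fold change of 0.42 (SE 0.26, 95% interval −0.13 to 0.97) had an FDR of 0.193. SPRY4 (ENSG00000187678.10, chromosome 5, 142310427 to 142326455, minus strand) had 55.0 and 58.6 CPM in shCtrl, between the 69.5 and 45.9 CPM of the shFOXK2 libraries. Its log2 fold change was 0.023 (SE 0.27, 95% interval −0.55 to 0.60, FDR 0.954), and its sign changed with the settings. SPRY1, a relative with the same role, had 42.8 and 47.5 CPM in shCtrl and 34.9 and 57.3 CPM in shFOXK2 (log2 fold change 0.032, FDR 0.937). SPRY3 was near 1 CPM, with 18 to 27 counts in each library and a log2 fold change of 0.15 (FDR 0.787).

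Promoter windows from RefSeq (GRCh38.p14, 250 bases before to 50 after a start site) were found for 6 of the 10 genes (SPRED2, EGR1, SPRY4, DUSP6, SPRY2 and SPRED1) and searched on both strands. The ETS-type core CCGGAA, the kind of element read by ETV4 and ETV5, was in the windows of 1 of these genes, SPRY2, against 17.2% of all 35116 windows. SPRY2 was the only one of the 6 genes to hold these exact letters, and other ETS-type sequences were not searched for. The bases before the SPRY2 start site, chr13:80341127-80341376 on the minus strand, are given with the core in capitals.
SPRY2: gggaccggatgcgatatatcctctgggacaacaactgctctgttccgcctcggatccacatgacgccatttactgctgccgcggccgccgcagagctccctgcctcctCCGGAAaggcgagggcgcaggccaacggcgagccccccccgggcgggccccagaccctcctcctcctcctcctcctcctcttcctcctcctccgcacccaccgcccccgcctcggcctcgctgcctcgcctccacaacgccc
The forkhead motif GTAAACA, read by FOX family factors, was in 3.42% of all windows and in none of the 9 windows of these 6 genes, which says only that these letters are not in them. The AP-1 motif TGACTCA was in 4.95% of all windows and in 1 window of SPRED2, at an inner start site. The 4 motifs searched (CArG box included) do not contain one another. No binding data were used here, so the matches are descriptions of sequence.

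Of the SPRED genes, SPRED2 fell and SPRED1 did not pass. SPRED2 (ENSG00000198369.10, chromosome 2, 65310851 to 65432637, minus strand) had 84.3 and 77.1 CPM in shCtrl and 48.6 and 46.2 CPM in shFOXK2, with tight replicates and no overlap. It was 1.70-fold lower, a log2 fold change of −0.77 (SE 0.24, 95% interval −1.29 to −0.25, FDR 0.0183). Leaving out shFOXK2 replicate 1 gave an FDR of 0.0559, and leaving out replicate 2 gave 0.0915. It was 0.0793 when the libraries were also adjusted for the adenine (A) content of transcripts, where the log2 fold change was −0.42. That adjustment raised the fold changes of all tested genes by a median of 0.169 (log2), and SPRED2 was at −0.59 relative to this shift.

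SPRED1, mutated in Legius syndrome (ENSG00000166068.13, chromosome 15, 38252836 to 38357249, plus strand), had 70.1 and 38.8 CPM in shCtrl and 71.9 and 66.8 CPM in shFOXK2. Only shCtrl replicate 2 stood apart, and the 2 controls differed 1.81-fold. The log2 fold change was 0.35 (SE 0.29, 95% interval −0.28 to 0.97, FDR 0.344). It was 0.80 without shCtrl replicate 1 (FDR 0.0294) and −0.090 without shCtrl replicate 2 (0.835), so its direction depended on which control was used. SPRED1 has the most A-rich transcript of the 10 genes, at 30.2% A against a median of 26% over tested genes. SPRED3 had 8.34 and 8.16 CPM in shCtrl and 11.1 and 8.57 CPM in shFOXK2 (log2 fold change 0.25, FDR 0.525). SPRED2 relative to SPRED1, per kilobase within a library, was 1.93 and 3.20 in shCtrl and 1.09 and 1.11 in shFOXK2. The transcripts differ in composition, at 50.9% GC for SPRED2 and 36.3% for SPRED1. With an adjustment for GC content the 2 genes had similar log2 fold changes, −0.46 for SPRED2 and −0.52 for SPRED1. The difference between them in the ratio was therefore not kept under that adjustment.

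The PEA3-type factors lay in opposite directions, and neither passed the test. ETV4 (ENSG00000175832.13, chromosome 17, 43527844 to 43579620, minus strand) had 45.8 and 56.6 CPM in shCtrl and 68.1 and 86.5 CPM in shFOXK2. Its log2 fold change was 0.59 (SE 0.26, 95% interval 0.043 to 1.15), with an FDR of 0.0704. ETV5 (ENSG00000244405.8, chromosome 3, 186046314 to 186110318, minus strand), the most abundant of the 10 transcripts in shCtrl, had 131 and 138 CPM there and 82.7 and 97.5 CPM in shFOXK2. Its log2 fold change was −0.58 (SE 0.23, 95% interval −1.08 to −0.074), with an FDR of 0.0557. Of 11 alternatives that kept every library, 3 called ETV5 lower. These were DESeq2 (FDR 0.0355), no filter on low counts (0.0369) and pairing replicates of opposite number (0.0314). ETV4 was called higher in 3 of the 11, each with an adjustment for composition. In neither gene did the groups overlap. ETV1, the remaining PEA3-type gene, had 70.8 and 40.6 CPM in shCtrl and 32.8 and 57.2 CPM in shFOXK2 (log2 fold change −0.31, FDR 0.46). Under the A-content and GC-content offsets ETV1 was called lower, at −1.01 (FDR 0.00834) and −1.10 (FDR 0.00644), and without shCtrl replicate 2 at −0.73 (FDR 0.0426), while it was at 0.12 without shCtrl replicate 1 and 0.011 without shFOXK2 replicate 1.

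A ratio of 2 genes within 1 library does not depend on how libraries are scaled. It can still change with an adjustment for transcript composition where the 2 transcripts differ in it, as for SPRED2 and SPRED1. ETV5 relative to ETV4, per kilobase, was 1.64 and 1.39 in shCtrl and 0.696 and 0.645 in shFOXK2, so the ratio was lower in both shFOXK2 libraries. Which factor is higher depends on the transcript lengths used. Per kilobase the order was opposite in the 2 groups, while in CPM ETV5 exceeded ETV4 in every library. SPRY4 relative to SPRY2 was 0.956 and 0.905 in shCtrl and 0.794 and 0.605 in shFOXK2. With 2 libraries in each group the 2-sided exact permutation test cannot go below 0.333, which 4 of the 5 ratios examined reached (0.417 after adjustment over the 5), and DUSP5 relative to DUSP6 gave 0.667.

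**Figure D3:**
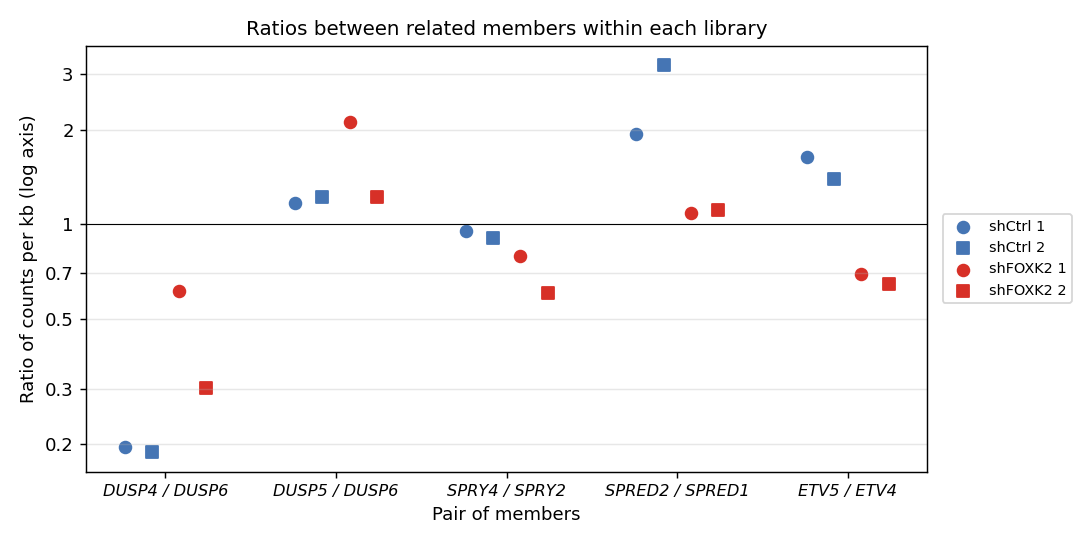
Ratio of counts per kilobase (log axis) for 5 pairs of related genes within each library, shCtrl in blue and shFOXK2 in red, with a line at equal levels. Per kilobase, ETV5 exceeds ETV4 in both shCtrl libraries (1.64 and 1.39) and lies below it in both shFOXK2 libraries (0.696 and 0.645).

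EGR1, an immediate early gene switched on within minutes of ERK activation through serum response factor and its ETS partners (ENSG00000120738.8, chromosome 5, 138465479 to 138469303, plus strand), differed most between replicates. Its counts were 1137 and 582 in the controls and 602 and 1988 under the FOXK2 hairpin, or 51.0, 36.3, 42.3 and 109 CPM. The high value came from shFOXK2 replicate 2 alone, and shFOXK2 replicate 1 lay between the controls. The shFOXK2 libraries differed 2.58-fold and the shCtrl libraries 1.41-fold. The log2 fold change was 0.80 (SE 0.37, 95% interval 0.0055 to 1.59, FDR 0.089). It was 1.30 without shFOXK2 replicate 1 (FDR 0.000828) and −0.074 without shFOXK2 replicate 2 (0.895).

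Of the 6 genes with a promoter window, EGR1 was the one with a CArG box (CC, 6 bases of A or T, then GG), the element that serum response factor binds, which was in 1.29% of all windows. It held 2 of them, CCATATTAGG from 105 to 96 bases and CCATATATGG from 83 to 74 bases before the start site. The 250 bases before the start site, chr5:138465229-138465478 on the plus strand of GRCh38.p14, are given with the CArG boxes in capitals.
EGR1: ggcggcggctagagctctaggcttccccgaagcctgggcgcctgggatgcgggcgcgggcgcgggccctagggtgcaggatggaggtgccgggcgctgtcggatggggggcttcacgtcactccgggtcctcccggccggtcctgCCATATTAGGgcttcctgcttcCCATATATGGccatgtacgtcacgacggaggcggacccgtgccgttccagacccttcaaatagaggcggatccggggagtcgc
The other members of its family were low. EGR2, a relative induced in the same way, had 20 and 16 counts in the controls against 7 and 2 under the FOXK2 hairpin (log2 fold change −1.71, SE 0.62, FDR 0.0345). It was at −3.05 without shFOXK2 replicate 1 (0.00454) and at −0.96 without shFOXK2 replicate 2 (0.284). The call was also lost without shCtrl replicate 1 (0.115) or shCtrl replicate 2 (0.135), with library size as the only scaling (0.0592), with the offsets on A content (0.0885) and GC content (0.0823) and by DESeq2 (0.223). EGR3 and EGR4 had 1 to 5 counts and were not tested.

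**Figure D4:**
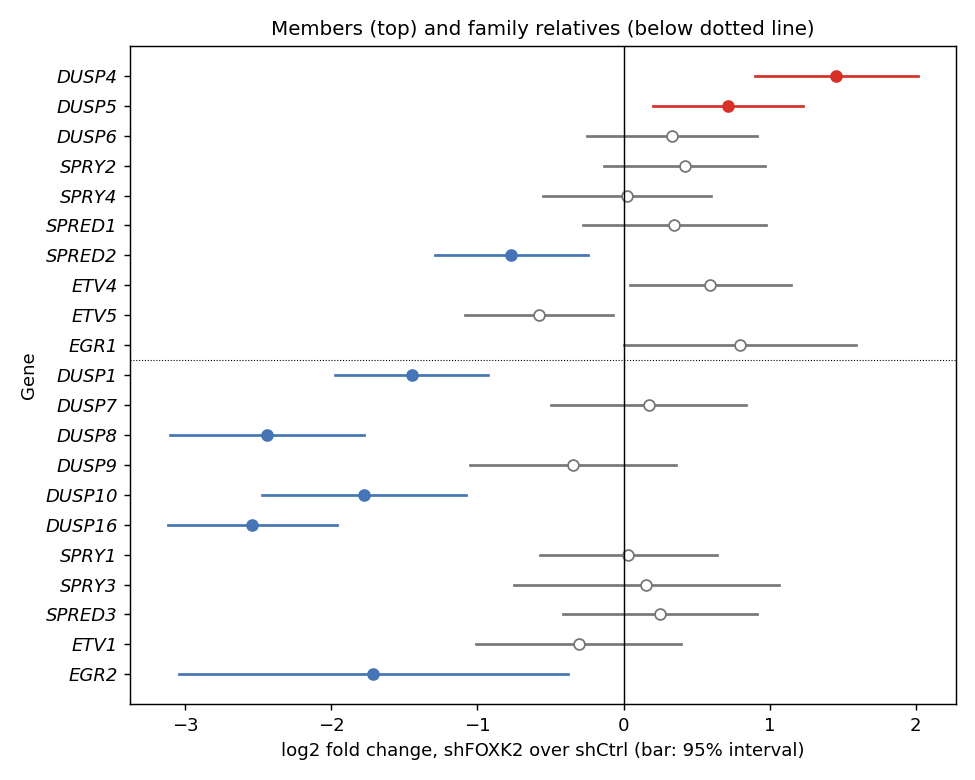
Log2 fold change of shFOXK2 over shCtrl, with its 95% interval, for the 10 genes (above the dotted line) and their 11 tested relatives, red for a call higher, blue for a call lower and open grey for no call. The intervals of DUSP4 and DUSP5 lie above 0 and that of SPRED2 below it, and these genes were called. Those of ETV4 and EGR1 also lie above 0 and that of ETV5 below it, without a call. The intervals are not adjusted for the number of genes tested, whereas the calls are. Among the relatives DUSP1, DUSP8, DUSP10, DUSP16 and EGR2 were called lower.

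Over the 14 relatives as a list, 11 were tested and 5 were called, which is 45.5% of those tested. All 5 were called lower. Of all tested genes 48.4% were called, 25.7% higher and 22.7% lower. The median log2 fold change of the relatives was −0.35. The level of the 10 genes themselves, as CPM per kilobase of the canonical transcript, ran in shCtrl from 33.0 ± 1.16 for ETV5 (SD, n = 2) to 4.06 ± 0.0858 for DUSP4. In that order came ETV5, DUSP5, ETV4, DUSP6, SPRED2, EGR1, SPRY2, SPRY4, SPRED1 and DUSP4. DUSP5, ETV4 and DUSP6 overlapped each with the next, as did EGR1, SPRY2 and SPRY4. In shFOXK2 the order was DUSP5, ETV4, DUSP6, EGR1, ETV5, SPRY2, SPRY4, DUSP4, SPRED2 and SPRED1, from 41.3 ± 1.69 to 9.54 ± 0.503. There ETV4 to ETV5 overlapped each with the next, and so did SPRY4, DUSP4 and SPRED2.

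The kinase cascade above these genes was read from a list of 36 genes. All were tested, and 3 were called higher and 9 lower, 33.3% in all against 48.4% of all tested genes (25.7% higher and 22.7% lower), with a median log2 fold change of −0.21. Among the RAS genes HRAS rose from 45.7 and 64.4 CPM to 119 and 118 CPM (log2 fold change 1.10, SE 0.26, FDR 0.00312). NRAS, at 82.2 and 40.9 CPM in shCtrl against 92.2 and 74.1 CPM in shFOXK2, did not pass (FDR 0.271). Its low library was shCtrl replicate 2, as it was for SPRED1.

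The kinase genes BRAF, ARAF, MAP2K1 and MAP2K2 did not pass either. BRAF had a log2 fold change of 0.041 (FDR 0.93), ARAF −0.27 (0.401), MAP2K1 −0.45 (0.131) and MAP2K2 0.15 (0.637). MAPK3, which encodes ERK1, fell from 72.9 and 96.9 CPM to 47.9 and 57.1 CPM, a log2 fold change of −0.69 (SE 0.26, FDR 0.0392). Adjusted log2 fold changes below include the median shift of all tested genes, 0.169 for A content and 0.125 for GC content. The MAPK3 call was lost with library size alone (0.0525), with at least 10 counts in every library (0.0574), with the A-content adjustment (0.215, log2 fold change −0.31), with a GC-content adjustment (0.155, log2 fold change −0.35), and without shCtrl replicate 2 (0.129), shFOXK2 replicate 1 (0.172) or shFOXK2 replicate 2 (0.0555).

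The largest falls in the cascade were RPS6KA2, encoding the ERK-activated kinase RSK3, from 91.4 and 100.2 CPM to 12.2 and 9.56 CPM (log2 fold change −3.14, SE 0.28, FDR 3.3e-06), then the RAS-related MRAS (−2.59) and the scaffold KSR1 (−1.53). Beside HRAS, the largest rises were SHOC2, which acts with MRAS on RAF (1.41, FDR 0.00154), and the RAS inhibitor RASA2 (1.05, 0.0439). The transcripts of SHOC2 and RASA2 are 31.1% and 31.6% A. SHOC2 was at 0.83 with the A-content adjustment and at 0.54 with the GC-content adjustment (FDR 0.0484). RASA2 was at 0.39 with the A-content adjustment (0.311), at 0.29 with the GC-content adjustment (0.427) at 0.46 without shCtrl replicate 2 (0.362) and at 1.90 without shCtrl replicate 1 (0.000377), and it also missed the threshold with library size alone (0.087) and by DESeq2 (0.0822).

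Other ERK outputs were called in both directions. Of 15 listed, all tested, 5 were called higher and 5 lower, which is 66.7% against 48.4% of all tested genes (25.7% higher and 22.7% lower), with a median log2 fold change of −0.20. FOSL1, encoding the AP-1 subunit FRA1 that ERK stabilises, rose from 130 and 170 CPM to 1054 and 513 CPM, a log2 fold change of 2.39 (SE 0.32, FDR 7.9e-05), or 1.75 without shFOXK2 replicate 1. FOS, an immediate early gene like EGR1, went from 8.61 and 8.10 CPM to 27.8 and 54.5 CPM (log2 fold change 2.30, SE 0.34, FDR 0.000136), and as with EGR1 shFOXK2 replicate 2 was its highest library, without which the log2 fold change was 1.70. EMP1, a membrane protein gene, rose with a log2 fold change of 1.39. IER3, an early response gene also driven by NF-kB, fell from 273 and 331 CPM to 53.2 and 48.5 CPM (log2 fold change −2.57, SE 0.25, FDR 6.5e-06), and overlapping genes share 38.9% of its exon bases. PLAUR, the urokinase receptor gene, and MYC fell with log2 fold changes of −1.10 and −1.05. Without shFOXK2 replicate 2 PLAUR was at −0.79 (FDR 0.0711).

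For each of the 10 genes, the non-member whose centred log2 CPM over the 4 libraries lay nearest was found among 16407 genes. MCFD2 was nearest to SPRED2, at a distance of 0.0068, L3MBTL2 to SPRY2 (0.022), TBL1X to ETV5 (0.022), SLC25A33 to SPRY4 (0.027), AIFM3 to ETV4 (0.032), GPR135 to DUSP6 (0.034) and STRN3 to SPRED1 (0.060). AC026403.1 was nearest to DUSP4 (0.0094) and AC016727.1 to DUSP5 (0.024). EGR1 had the most distant neighbour of the 10, OSCAR at 0.16. With 4 libraries in 2 groups many genes share a profile, so these names are a description.

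Transcript composition moved several of these values. The 10 genes had a median A content of 23.9%, against 26% over tested genes with a value. When each library was given a smooth offset on A content, the fold changes of all tested genes shifted by a median of 0.17 on the log2 scale, and 5 of the 10 genes were called higher, where 51.2% of all tested genes were called (28.2% higher and 23% lower). DUSP4, DUSP5, DUSP6, SPRY2 and ETV4 were then the called genes, with log2 fold changes of 1.80, 1.06, 0.65, 0.74 and 0.97, or 1.63, 0.89, 0.48, 0.57 and 0.80 relative to the shift. SPRED2 was at −0.42 and ETV5 at −0.24, or −0.59 and −0.41 relative to the shift, and neither passed the threshold. Each test was made on the value that includes the shift. With an offset on GC content, which shifted all tested genes by a median of 0.13, DUSP4, DUSP5, SPRY2 and ETV4 were called higher and SPRED1 lower, at −0.52 (FDR 0.0355), where 53% of all tested genes were called (28.9% higher and 24.1% lower). The split of calls in the 10 genes therefore went from 2 higher and 1 lower to 5 higher under the A-content offset and to 4 higher and 1 lower under the GC-content offset. DUSP4 and DUSP5 were called higher under all 3.

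**Figure D5:**
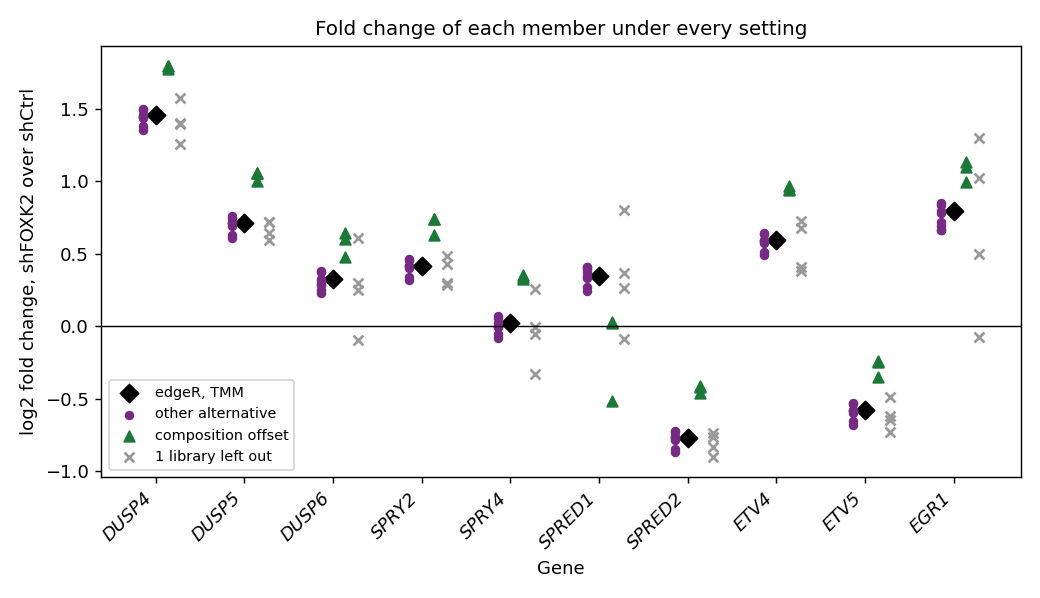
Log2 fold change of shFOXK2 over shCtrl for each of the 10 genes by edgeR with TMM scaling (black diamonds), with an offset on composition (green triangles), under other alternatives (purple circles) and with 1 library left out (grey crosses). DUSP4 is at 1.26 or higher and SPRED2 at −0.41 or lower under all of them, while SPRED1, DUSP6, SPRY4 and EGR1 cross 0.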

How the data were processed

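RNA-seq libraries of OVCAR5 cells were compared between shCtrl (n = 2) and shFOXK2 (n = 2), with groups and replicate numbers taken from the titles. The authors selected poly(A) RNA, sequenced single-end reads, aligned them to hg38 (GRCh38) with STAR 2.5.2 and obtained counts from HTSeq. The deposited tables hold raw counts per gene symbol, without normalization. The annotation and the strand setting are not given in the sources used here, and reads that fit several genes may be lost from near-identical copies. The titles do not say that replicates were separate cultures, although the design text calls them biological duplicates. The p-values set the group difference against the spread between these samples, where the spread of each gene was estimated partly from the other genes.

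Genes were filtered with filterByExpr, scaled by TMM and compared in edgeR 4.0.16 (R 4.3.3) by its 2-sided quasi-likelihood F test, with Benjamini-Hochberg adjustment over 16417 genes and a threshold of 0.05. SE was the absolute log2 fold change over the square root of F, and 95% intervals used the t distribution of the fit. A floor of 3 counts was 0.134 to 0.211 CPM, counting error only. The script was tested on simulated data, with 200 of 15871 tested genes changed. There the TMM-scaled edgeR test recovered 20% of changes of 1 log2 unit and 88% of changes of 2. In the real libraries 48.4% of tested genes were called, a far larger share than was changed there. These recoveries therefore do not carry over to the real libraries. Not passing the test does not show that a gene is unchanged. Positions, length and composition came from GENCODE v44 (hg38), directly or through RefSeq synonyms, for 87.7% of tested genes, and offsets were lowess fits with a span of 0.2, with none for genes without a value. DESeq2 1.42.0, other scalings and filters, a replicate block and leaving out each library were the alternatives.

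The members and lists were chosen with earlier results of these data known. By rule the text names the 10 members, FOXK2, their relatives, core RAS to ERK cascade genes (some are not reported here), the nearest genes, and the 3 largest called rises and falls of the cascade and ERK-output lists. The marker genes WT1, EPCAM, CDH1, PTPRC, CD3E, COL1A1, COL1A2, DCN, PECAM1 and CDH5 came from the fixed marker lists, and MALAT1 was named after its values were seen. No gene set test was run. Replicate libraries were not copies of each other, with a chi-square of 36.4 and 24.8 per gene, where sampling alone gives about 1.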

Additional observations from a re-analysis of the deposited data

How the results depend on the processing

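The count of calls among the 10 ERK genes was 3, and it moved to 5 with the A-content offset, 5 with the GC-content offset, 1 with the replicate block, 6 with the replicate block and A-content offset together, and 5 with the replicate numbers crossed, a pairing added after seeing the data because same-numbered deviations correlated at −0.113. No label says what a replicate number shares, so whether same-numbered libraries were paired is not known. The block called DUSP4 alone, with DUSP5 at an FDR of 0.0671 and SPRED2 at 0.0506. MAPK3 also lost its call with the block (FDR 0.0836) and with block and offset (0.192). With no filter on low counts all fold changes shifted by a median of −0.10 (log2), and the calls were 1 higher and 2 lower. By glmTreat against a log2 fold change of 1 it was 0, with 1 gene at an unadjusted p under 0.05 (6 by edgeR without a minimum, against 55% of all genes), and DESeq2 called 4. Over all tested genes the share called was 44.3% with the block, 53.1% with block and offset, 50.9% crossed, 20.6% by glmTreat, 34.3% by DESeq2, 26.3% with no filter and 39.6% to 44.4% with 1 library left out. That test asks for a larger change, and it also lowered the calls to 3 for the relatives, 2 for the cascade and 3 for other ERK outputs. With 1 library left out, the lone library being assumed to vary like the others, the counts ran from 1 to 4 for the 10 genes, 4 to 5 for relatives, 8 to 17 for the cascade and 7 to 10 for other outputs. The 10 genes had 1 call without shFOXK2 replicate 2. The signs that reversed were of results not called by the TMM-scaled edgeR test, although SPRED1 was called lower with the GC-content offset. SPRY4 was −0.053 by DESeq2, −0.079 with no filter, −0.0056 with the replicate block and −0.0064 crossed, and SPRY1 −0.048, −0.070, −0.010 and −0.0075 in the same order. BRAF was −0.033 by DESeq2, −0.064 with no filter and −0.24 with the GC-content offset. That offset also put SPRED1 at −0.52, NRAS at −0.29 and SPRY3 at −0.091. ARAF was 0.079 with the A-content offset, 0.080 with the GC-content offset and 0.073 with the replicate block and A-content offset. Leaving out 1 library gave ranges of −0.095 to 0.61 for DUSP6, −0.33 to 0.26 for SPRY4, −0.090 to 0.80 for SPRED1, −0.074 to 1.30 for EGR1, −0.41 to 0.54 for DUSP7, −0.40 to 0.32 for SPRY1, −0.79 to 0.12 for ETV1, −0.057 to 0.99 for NRAS, −0.40 to 0.52 for BRAF and −0.051 to 0.27 for MAP2K2. The causes were not tested. Depth limits EGR2, EGR3, EGR4 and DUSP2.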
